A study of Mus musculus with 9 samples.

Results

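DNA replication genes were followed in adult olfactory bulb stem cells (aOBSCs), neural stem cells of the mouse olfactory bulb that grow in culture as floating neurospheres. The group holds 39 listed genes of the replication machinery, matched to the arrays by their symbols. The list was drawn up with earlier results of these data known. Of the 18193 genes with a probe set of their own on the arrays, 38 belong to the group. A probe set is the group of short oligonucleotides that reads 1 transcript. The 39th gene, Chaf1a, had no probe set in the probe annotation used here. The 38 genes were read by 83 probe sets, of which 63 had a mean log2 value of at least 4, the level taken here as clear of the floor of the arrays, and 37 genes had a main probe set above that level.

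The cells came from the olfactory bulb of mice for which the sources name no transgene or deletion. The methods name CD1 and C57Bl/6 mice for such cultures and the array legend gives mice of 7 and 15 months, and the sources used here do not say which array came from which mice or culture. All cultures received FGF-2 and EGF at 20 ng/ml every day until passage 3 in a serum-free medium with insulin, and were then split into 3 conditions that differed in how often both factors were added: every day in the control (Ctr), every 2 days in C2 and every 4 days in C4. By the methods, cells spent 2 further passages under their condition before gene expression was measured. RNA was taken after 7 days in culture from 3 replicates per condition, which the submitters call biological, and each was hybridised to 1 Affymetrix Mouse Genome array. Since the spheres were collected on the same day, the last addition lay further back in C4 than in C2 or Ctr. The interval, its build-up over the passages and the time since the last addition cannot be told apart.

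Before a cell divides it copies its genome once, in S phase. In G1, the origin recognition complex with Cdc6 and Cdt1 loads the ring-shaped MCM2-7 helicase onto DNA, a step called licensing, and at the start of S phase Cdc45 and the GINS complex join the ring and turn it on. Primase and DNA polymerase alpha then lay down primers, the clamp loader RFC places the sliding clamp PCNA, polymerases delta and epsilon extend the strands, RPA covers single-stranded DNA, and Fen1 and Lig1 process and seal the fragments of the lagging strand. Ribonucleotide reductase, thymidine kinase and thymidylate synthase supply the deoxynucleotides. Many of these genes are transcribed around the G1/S transition under E2F transcription factors, which are held back by pocket proteins until growth factor signals let cyclin-dependent kinases release them, and a high level of MCM and PCNA transcripts is widely used as a sign of cycling cells.

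Sites of the kind that E2F factors bind were looked for in the promoters, because E2F control is the best known feature that these genes share. The letters searched were TTTCCCGC, TTTCGCGC, TTTGCCGC and TTTGGCGC on both strands, in RefSeq windows of 250 bases before to 50 bases after each start (GRCm38.p6), and matches could overlap. Of the measured members, 31 had a window and 13 of these held a match, 41.9%, against 704 of 27025 genes with a window (2.6%), and against 398 of 7694 genes (5.2%) among those with an array mean of at least 4. Stretches around matches are shown for the helicase genes Mcm5, Mcm6 and Mcm7, which stood highest on the C4 arrays, and for Cdt1 and Lig1, which moved in opposite directions. Capitals mark the match on either strand. In Mcm5 the stretch lies at chr8:75109332-75109391 on the plus strand, in Mcm6 at chr1:128359721-128359839 on the minus strand, in Mcm7 at chr5:138172017-138172072 on the minus strand, in Cdt1 at chr8:122568036-122568064 on the plus strand, and in Lig1 at chr7:13278841-13278870 on the plus strand. In Mcm5 and in the first stretch of capitals of Mcm6, a match on each strand overlaps the other.
Mcm5: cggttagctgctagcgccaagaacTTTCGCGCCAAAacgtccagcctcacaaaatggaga
Mcm6: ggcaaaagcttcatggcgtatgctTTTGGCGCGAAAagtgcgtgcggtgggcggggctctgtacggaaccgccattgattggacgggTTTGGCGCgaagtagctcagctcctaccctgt
Mcm7: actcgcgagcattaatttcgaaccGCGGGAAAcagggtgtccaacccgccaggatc
Cdt1: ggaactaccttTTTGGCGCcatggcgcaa
Lig1: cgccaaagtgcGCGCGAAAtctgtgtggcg

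The stretches of Mcm5, Mcm6 and Mcm7 lie upstream of the start, at -177 to -118, -134 to -16 and -189 to -134, and those of Cdt1 and Lig1 lie just past it, at 22 to 50 and 16 to 45. The same Mcm7 window holds a further match that is not shown, TTTCGCGC on the strand of the gene, which begins past the start at position 17. Matches were also found in Cdc6, Gins3, Mcm3, Orc1, Pola1, Pold1, Rfc3 and Uhrf1. None of the 4 octamers occurred in the windows of Pcna, Rpa1, Rrm1 or Tk1, which says only that these letters are not in these windows.

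The arrays were alike in overall level, which the quantile normalisation of the deposited values largely sets in advance. The third quartile of each array lay between 6.46 and 6.60 on the log2 scale, 34.8 to 35.8% of the probe sets of an array stood at its lowest value, and arrays of a condition correlated with each other at 0.99769 to 0.99878 over all probe sets. The difference between the 3' and 5' probe sets of Gapdh, a sign of RNA integrity, was -0.28, -0.33 and -0.33 in Ctr, -0.38, -0.40 and -0.38 in C2, and -0.35, -0.39 and -0.27 in C4, so that the C2 arrays lay below the Ctr arrays without overlap and the C4 arrays overlapped both. Of 9 markers of neural stem and progenitor cells, all but Prom1 had a mean of at least 4, whereas the 6 microglial, 4 endothelial and 4 fibroblast markers all lay below it, as did the neuronal markers Dcx, Tubb3, Stmn2 and Rbfox3, the astrocytic Gfap and the oligodendroglial Sox10, Mbp and Mog.

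Replication transcripts were clear of the floor in all conditions for 37 of the 38 genes, and the differences between conditions were small. No member differed by 1 on the log2 scale, a doubling, in any comparison, and in none did the 95% interval of the difference reach 1 in either direction. The mean over the 37 members with a main probe set above the floor was 7.84, 7.88 and 7.87 on the Ctr arrays, 7.79, 7.76 and 7.77 on the C2 arrays, and 7.96, 8.05 and 7.97 on the C4 arrays. The 3 C4 arrays were thus the highest and the 3 C2 arrays the lowest, with no overlap between conditions. The order was not seen in the median over the same members, which was 7.61, 7.62 and 7.65 in Ctr, 7.71, 7.62 and 7.78 in C2, and 7.69, 7.85 and 7.70 in C4, where C2 overlapped both other conditions. In all, 12 members, listed by role further on, passed the test in at least 1 comparison (adjusted p under 0.05 over 45037 probe sets).

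With factors every 4 days in place of every day, 6 members rose, namely Pcna, Mcm7, Rpa1, Lig1, Rrm1 and Tk1, and 2 fell, Mcm4 and Cdt1. Thymidine kinase 1 and Pcna had the largest increases, of 1.41-fold and 1.39-fold, and the largest decreases were 0.728 times the control level for Mcm4 and 0.772 times for Cdt1. The value of Mcm4 is that of its main probe set, and a second probe set of the gene was called higher, at 1.35-fold (adjusted p = 0.000875), so that with sets of the suffixes _x_at and _s_at left out Cdt1 was the 1 decrease. Called higher were 16.2% of the 37 members, set against 10.7% of the 9347 genes with a mean of at least 4 and 5.65% of all 18193 genes, and called lower were 5.41% of the members, set against 6.78% and 3.55%. The shares of members called are thus near those of other genes that were clear of the floor. Over the 37 members the median difference was 0.196 on the log2 scale, with 26 above 0 and 11 below, and over all 9347 genes it was 0.045, with 58.6% above 0. At an unadjusted p under 0.05, 15 members were higher and 4 lower, against 24.7% and 15.4% of the 9347 genes. The 29 members without a call differed by -0.27 (Rfc3) to 0.46 (Gins2). Without Ctr replicate 1, Ctr replicate 2 or C4 replicate 2 only 2 increases were called, Pcna and Mcm7, without C4 replicate 1 the calls of Rpa1, Rrm1 and Tk1 were lost and 3 increases were left, and of the others Rrm1 was lost without Ctr replicate 3 or any C2 array, Tk1 without Ctr replicate 3 or C2 replicate 1, and Rpa1 and Lig1 without C4 replicate 3. The decrease of Mcm4 lost its call without any 1 Ctr or C4 array or without C2 replicate 2, and with all probe sets of a gene averaged the members' median was 0.107.

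**Figure D1:**
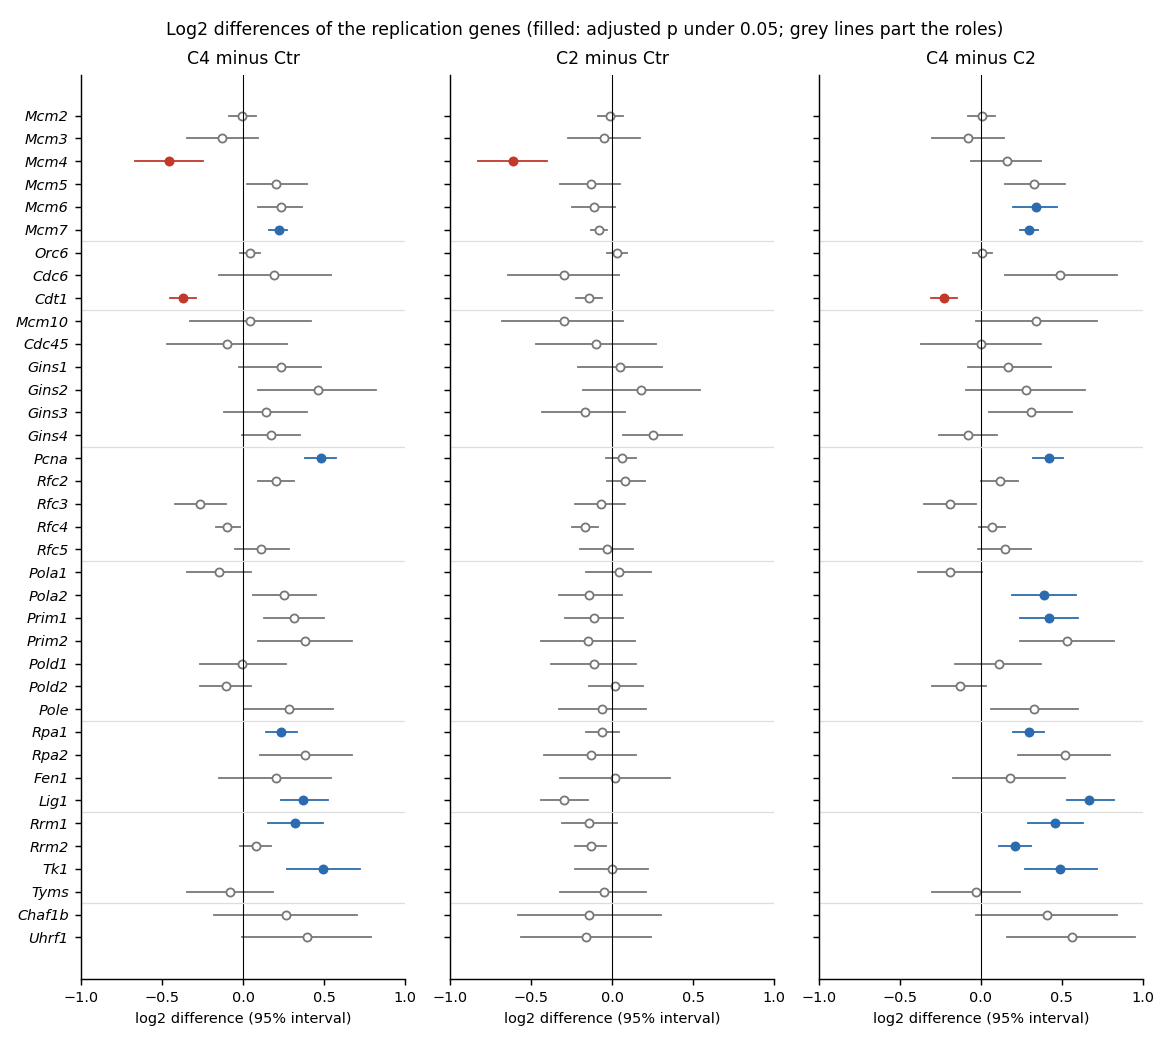
Log2 difference (x axis, with its 95% interval as a line) of the 37 replication genes with a mean of at least 4 (y axis, ordered by role with grey lines between roles) for C4 minus Ctr, C2 minus Ctr and C4 minus C2, with filled points for an adjusted p under 0.05. In C4 minus Ctr 6 genes are filled on the right and 2 on the left, in C2 minus Ctr 1 on the left, and in C4 minus C2 10 on the right and 1 on the left.

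With factors every 2 days, no member rose and only Mcm4 fell, to 0.654 times the control level. This too rests on its main probe set, as the second gave 0.941 times the control level (adjusted p = 0.388). Other members lay mostly a little below the control: 9 of the 37 differences were above 0 and 28 below, with a median of -0.102 on the log2 scale, whereas 55.9% of the 9347 genes were above 0 and their median was 0.021. The single decrease is 2.7% of the members, set against 1.57% of the 9347 genes and 0.846% of all 18193, and the 0 increases are set against 3.21% and 1.67%. By limma at an unadjusted p under 0.05, 1 member was higher (Gins4) and 6 were lower, against 16.8% and 9.55% of the 9347 genes. The 36 members without a call differed by -0.30 (Mcm10) to 0.25 (Gins4). The call of Mcm4 was lost without any 1 of the Ctr arrays, without C2 replicate 1 or 2 and without C4 replicate 2, and without C4 replicate 1 Lig1 was called lower as well. The Gapdh difference given above also set the C2 arrays apart from Ctr, and its part in the members' values was not tested.

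Most of the calls came when C4 was set against C2, where 10 members rose and 1, Cdt1, fell. The increases took in the helicase subunits Mcm6 and Mcm7, the clamp Pcna, Pola2 and Prim1 of the primase complex, Rpa1, Lig1, both ribonucleotide reductase subunits Rrm1 and Rrm2, and Tk1, with the largest, 1.59-fold, in Lig1. They make up 27% of the 37 members, set against 8.13% of the 9347 genes and 4.29% of all 18193, and the 1 decrease is 2.7%, set against 6.67% and 3.49%. The median difference was 0.276, with 29 members above 0 and 8 below, whereas over the 9347 genes it was 0.017, with 53.7% above 0. At an unadjusted p under 0.05, 18 members were higher and 2 lower, against 19.6% and 16.7% of the 9347 genes. The 26 members without a call differed by -0.19 (Rfc3) to 0.56 (Uhrf1). The count of increases was 4 without C2 replicate 2 or C4 replicate 2 and 6 without Ctr replicate 1, Ctr replicate 2 or C2 replicate 1, and with all probe sets of a gene averaged the median was 0.163. Pcna, Mcm7, Rpa1, Lig1 and Cdt1 kept their calls whichever array was left out, whereas Rrm2 and Tk1 lost theirs without any 1 array other than C4 replicate 3, Prim1 without any 1 other than C2 or C4 replicate 3, Mcm6 without C2 replicate 2 or 3 or C4 replicate 2, and Rrm1 without C2 replicate 1 or 2 or C4 replicate 2. C4 minus C2 and C4 minus Ctr share the C4 arrays, and both comparisons with the control share the Ctr arrays, so the values of a gene in the 3 comparisons are not independent.

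**Figure D2:**
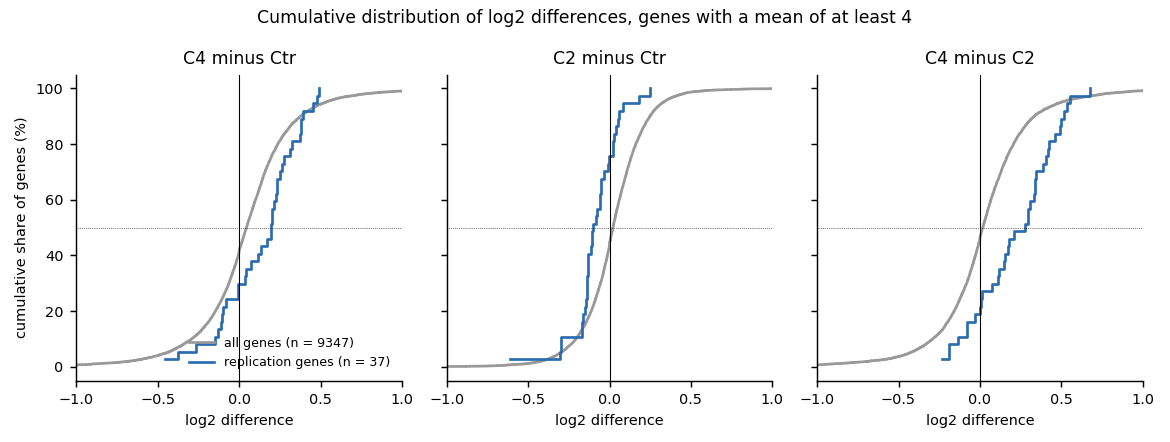
Cumulative share (y axis, percent) of log2 differences (x axis) for the 37 replication genes in blue and for all 9347 genes with a mean of at least 4 in grey, in 3 comparisons. The blue line runs to the right of the grey one around the middle in C4 minus Ctr (medians 0.196 and 0.045) and C4 minus C2 (0.276 and 0.017), and to its left in C2 minus Ctr (-0.102 and 0.021).

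Markers of cell types moved beside these shifts. In C4 minus Ctr, 4 of 9 markers of stem and progenitor cells (Egfr, Fabp7, Pax6 and Nr2e1), 3 of 6 astrocytic markers (Aldh1l1, S100b and Aqp4) and 3 of 6 oligodendrocyte lineage markers (Gpr17, Pdgfra and Cspg4) were called higher, and 1 stem cell marker (Vim) and 1 of 6 neuronal markers (Gad1) lower. In C2 minus Ctr none of these was called higher, and Aldh1l1 and Gpr17 were called lower, at 0.589 times (adjusted p = 0.0107) and 0.307 times the control level (adjusted p = 0.0272). Both therefore ran from C2 through Ctr to C4, Aldh1l1 from a mean of 7.36 to 8.12 and 9.23 and Gpr17 from 3.12, below the floor, to 4.83 and 7.53. The summed level of the oligodendrocyte lineage markers was 7.84 to 7.88 in Ctr, 7.51 to 7.67 in C2 and 8.75 to 9.17 in C4 on the log2 scale, that of the astrocytic markers 12.25 to 12.48, 12.39 to 12.49 and 12.73 to 12.83, that of the stem and progenitor markers 15.99 to 16.10, 15.93 to 15.97 and 15.99 to 16.08, and that of the neuronal markers 12.49 to 12.50, 12.35 to 12.44 and 12.42 to 12.61. Thus the C4 arrays were above all others in the oligodendroglial and astrocytic sums. The C2 arrays were below all others in the oligodendroglial sum and in the stem and progenitor sum. In the neuronal sum the C2 arrays lay below Ctr and overlapped C4, and in the astrocytic sum they overlapped Ctr. The part of such cells in the replication values was not tested. In these bulk samples fewer cells of a type and less RNA in each such cell cannot be told apart.

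The MCM2-7 helicase, the ring that unwinds DNA at the fork, had 1 of its 6 genes higher and 1 lower in C4 than in Ctr. Counts by role are of few genes. Of all 9347 genes clear of the floor, 10.7% were called higher and 6.78% lower in C4 minus Ctr. In C4 minus C2 the shares were 8.13% and 6.67%. Mcm7 read 10.31, 10.27 and 10.33 in Ctr, 10.25, 10.19 and 10.24 in C2, and 10.50, 10.53 and 10.53 in C4. All C4 arrays of Mcm7 lay above all others. Its difference was 0.22 ± 0.022 (SE; adjusted p = 0.00269) in C4 minus Ctr, -0.08 (adjusted p = 0.188) in C2 minus Ctr and 0.30 (adjusted p = 0.000781) in C4 minus C2. Mcm6 read 9.63, 9.78 and 9.73 in Ctr, 9.65, 9.56 and 9.60 in C2, and 9.87, 9.92 and 10.04 in C4. Here too the C4 arrays stood highest, but the test was passed only against C2, where the difference was 0.34 ± 0.056 (adjusted p = 0.0193), and not against Ctr, where it was 0.23 (adjusted p = 0.0727).

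Mcm4 gave the largest difference of any member from the control, and its probe sets went in opposite directions in C4. The main probe set read 10.10, 10.19 and 10.10 in Ctr, 9.63, 9.58 and 9.34 in C2, and 9.76, 9.70 and 9.56 in C4. Every C2 and C4 array was thus below every Ctr array, with a difference of -0.61 ± 0.088 in C2 (adjusted p = 0.0286) and -0.46 ± 0.088 in C4 (adjusted p = 0.0313). The second Mcm4 probe set read 8.80, 8.89 and 8.89 in Ctr, 8.77, 8.75 and 8.80 in C2, and 9.25, 9.33 and 9.30 in C4. On it, the C4 arrays were above all others, by 0.43 against Ctr (adjusted p = 0.000875) and 0.52 against C2 (adjusted p = 0.000392), and C2 differed from Ctr by -0.09 (adjusted p = 0.388). The main probe set has the suffix _x_at, which Affymetrix gives to sets whose probes can also match other transcripts, and the second does not. The direction of Mcm4 in C4 therefore depended on the probe set.

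Mcm5 and Mcm2, further subunits of the ring, had no call by their main probe sets. Mcm5 read 9.93, 10.05 and 10.05 in Ctr, 10.05, 9.77 and 9.81 in C2, and 10.17, 10.23 and 10.24 in C4, so that its C4 arrays were the highest, with a difference of 0.20 from Ctr (95% interval 0.02 to 0.39, adjusted p = 0.26) and of 0.33 from C2 (adjusted p = 0.065). A second Mcm5 probe set was called higher in C4 minus C2, by 0.41 (adjusted p = 0.0153). It gave 0.13 in C4 minus Ctr (adjusted p = 0.424). Mcm2 stayed within a narrow span, at 7.61, 7.62 and 7.65 in Ctr, 7.62, 7.61 and 7.62 in C2, and 7.54, 7.67 and 7.66 in C4. The 95% interval of Mcm2 was -0.09 to 0.08 in C4 minus Ctr and -0.09 to 0.07 in C2 minus Ctr.

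**Figure D3:**
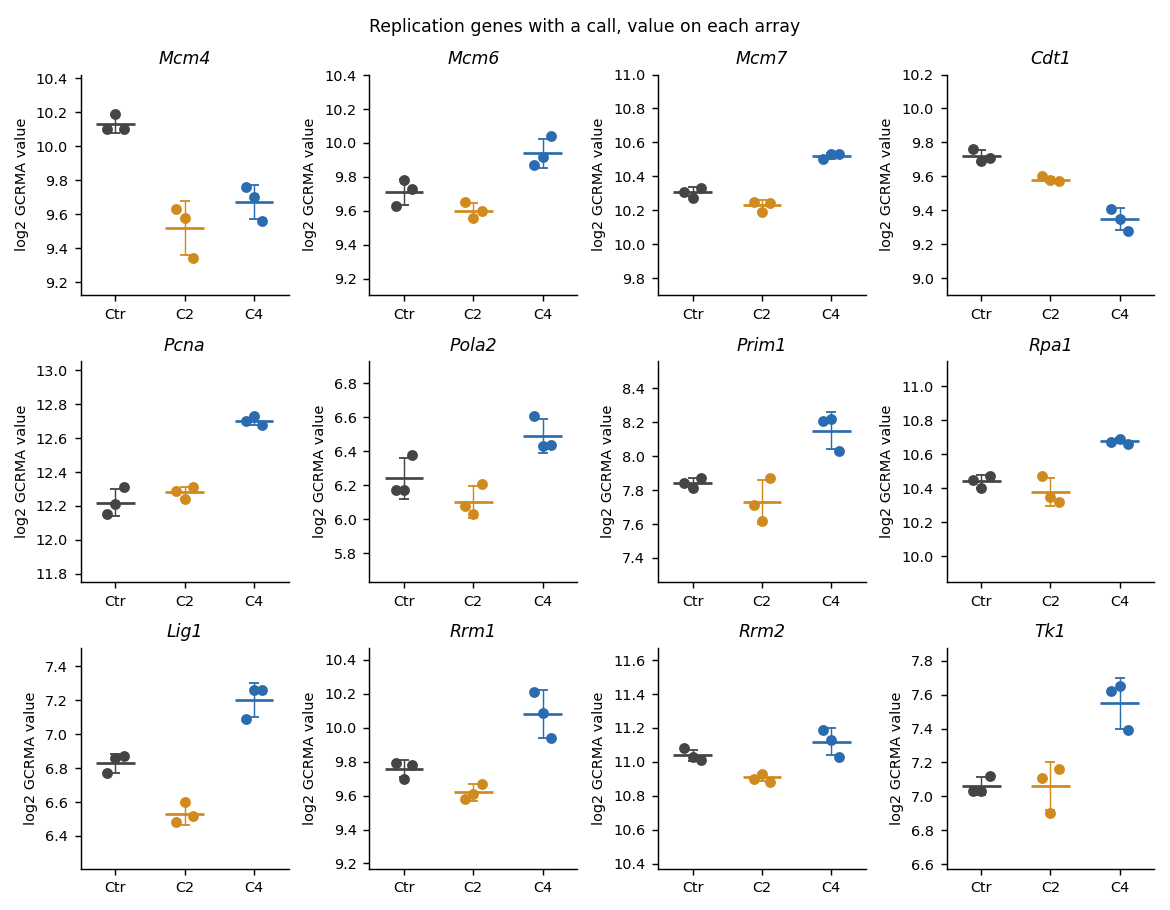
Log2 GCRMA value (y axis, of equal span and not starting at 0) of the 12 replication genes with a call in at least 1 comparison, on each of the 3 arrays of Ctr, C2 and C4 (points), with the mean (bar) and SD (whiskers) of each condition. For Pcna, Mcm6, Mcm7, Pola2, Prim1, Rpa1, Lig1, Rrm1 and Tk1 the 3 C4 points lie above all others. For Cdt1 they lie below all others, and for the main probe set of Mcm4 the Ctr points are the highest.

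Of the licensing factors, Cdt1 fell in C4, and Orc6 and Cdc6 did not pass the test, with differences in C4 minus Ctr of 0.04 and 0.19. Cdt1 is the loader of the helicase and is destroyed once S phase begins. Its values were 9.76, 9.69 and 9.71 in Ctr, 9.60, 9.58 and 9.57 in C2, and 9.41, 9.35 and 9.28 in C4. The 3 conditions did not overlap, with Ctr highest and C4 lowest. In C4 the difference from Ctr was -0.37 ± 0.033 (adjusted p = 0.00173) and from C2 -0.23 ± 0.033 (adjusted p = 0.011), while C2 minus Ctr was -0.14 ± 0.033 (adjusted p = 0.132). A second probe set of Cdt1 gave -0.23 in C4 minus Ctr (adjusted p = 0.293). Orc1, the largest subunit of the origin recognition complex, read 2.36 to 2.86 on all 9 arrays, at the floor, and no difference can be read from it.

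The 6 genes that join or activate the helicase, Mcm10, Cdc45 and Gins1 to Gins4, had no call in any comparison (limma), and at an unadjusted p under 0.05 1 was higher in each. Their differences ran from -0.10 to 0.46 in C4 minus Ctr, from -0.30 to 0.25 in C2 minus Ctr and from -0.08 to 0.34 in C4 minus C2. The interval of Gins2 ran from 0.09 to 0.82 in C4 minus Ctr.

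PCNA, the ring that tethers the polymerases to DNA, rose in C4. It read 12.15, 12.21 and 12.31 in Ctr, 12.29, 12.24 and 12.31 in C2, and 12.70, 12.73 and 12.68 in C4. The C4 arrays were clear of the rest, whereas Ctr and C2 overlapped. The difference was 0.48 ± 0.04 in C4 minus Ctr (95% interval 0.38 to 0.57, adjusted p = 0.00132), 0.42 ± 0.04 in C4 minus C2 (adjusted p = 0.00228) and 0.06 in C2 minus Ctr (95% interval -0.04 to 0.15, adjusted p = 0.735). Of the clamp loader subunits Rfc2 to Rfc5 none had a call by its main probe set. Rfc3 was 9.75, 9.64 and 9.59 in Ctr, 9.55, 9.65 and 9.55 in C2, and 9.48, 9.44 and 9.27 in C4, with the C4 arrays lowest and a difference from Ctr of -0.27 (95% interval -0.42 to -0.11, adjusted p = 0.0738). Another probe set of Rfc3 fell in C4 minus C2 by 0.45 on the log2 scale (adjusted p = 0.0127). Rfc4 was 9.07, 9.13 and 9.11 in Ctr, 8.94, 8.89 and 8.99 in C2, and 9.05, 8.99 and 8.99 in C4, and its largest difference, -0.17 in C2 minus Ctr, had an adjusted p of 0.0685.

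Primase and DNA polymerase alpha form 1 complex of 4 subunits, and 2 of them, Pola2 and Prim1, rose in C4 relative to C2. Of all 9347 genes clear of the floor, 8.13% were called higher in that comparison. Prim1, the catalytic primase subunit, read 7.84, 7.81 and 7.87 in Ctr, 7.71, 7.62 and 7.87 in C2, and 8.21, 8.22 and 8.03 in C4. Its C4 arrays were above the others, with a difference of 0.42 ± 0.076 from C2 (adjusted p = 0.0274) and 0.31 from Ctr (adjusted p = 0.0706). A second Prim1 probe set differed by 0.00 in each comparison. Pola2, the regulatory subunit, read 6.17, 6.17 and 6.38 in Ctr, 6.08, 6.03 and 6.21 in C2, and 6.61, 6.43 and 6.44 in C4. Again the C4 arrays were the highest, by 0.39 ± 0.082 over C2 (adjusted p = 0.0471) and 0.25 over Ctr (adjusted p = 0.173), and the call of Pola2 was lost without any single array other than Ctr replicate 3.

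The remaining subunits of that complex were not called. Prim2 read 6.78, 7.09 and 7.0 in Ctr, 6.74, 6.84 and 6.85 in C2, and 7.15, 7.56 and 7.31 in C4, which is 0.53 over C2 (95% interval 0.24 to 0.82, adjusted p = 0.0651). A second Prim2 probe set, which is as bright, gave -0.04 in C4 minus C2 (adjusted p = 1) and -0.27 in C4 minus Ctr (adjusted p = 0.556). The catalytic subunit Pola1 had 6.95, 6.95 and 6.98 in Ctr, 7.11, 6.95 and 6.95 in C2, and 6.64, 6.95 and 6.85 in C4, a difference from C2 of -0.19 (95% interval -0.39 to 0.01, adjusted p = 0.387). Several of these values are the same on different arrays: in 21 of the 37 members (56.8%) 2 or more arrays held an identical value to all deposited decimals, and in 53.5% of all 9347 genes. The 5 members Tyms, Orc6, Pola1, Gins1 and Rfc5 had the same value on at least 4 arrays. The leading and lagging strand polymerase genes Pold1, Pold2 and Pole had no call, with differences in C4 minus Ctr of -0.11 to 0.28.

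The genes for single-strand binding and for the lagging strand were all above the control in C4, by 0.20 to 0.38, and 2 of the 4 passed the test. Over all 9347 genes clear of the floor, 58.6% were above 0 and 10.7% were called higher. Rpa1, the large subunit of the single-strand binding protein, read 10.45, 10.40 and 10.47 in Ctr, 10.47, 10.35 and 10.32 in C2, and 10.67, 10.69 and 10.66 in C4. The C4 arrays formed a tight group above the rest, at 0.23 ± 0.041 over Ctr (adjusted p = 0.0222) and 0.30 ± 0.041 over C2 (adjusted p = 0.0103). A second Rpa1 probe set was not called, and on it C4 overlapped Ctr. It gave 0.17 in C4 minus Ctr (adjusted p = 0.417) and 0.31 in C4 minus C2 (adjusted p = 0.116). Rpa2, the partner of Rpa1, was 7.13, 7.22 and 7.01 in Ctr, 6.78, 6.93 and 7.24 in C2, and 7.57, 7.48 and 7.45 in C4. Rpa2 was also highest on the C4 arrays, but with wider scatter, and its difference from Ctr of 0.38 (95% interval 0.10 to 0.67) had an adjusted p of 0.156.

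Lig1, the ligase that seals the lagging strand, had the largest difference of any member between C4 and C2. It read 6.77, 6.86 and 6.87 in Ctr, 6.48, 6.60 and 6.52 in C2, and 7.09, 7.26 and 7.26 in C4. The conditions did not overlap, with C2 lowest and C4 highest. Lig1 was 0.37 ± 0.06 above Ctr in C4 (adjusted p = 0.0156) and 0.67 ± 0.06 above C2 (adjusted p = 0.00175), while C2 minus Ctr was -0.30 (95% interval -0.44 to -0.15, adjusted p = 0.0793). Fen1, the nuclease that trims the fragments before ligation, read 8.30, 8.22 and 8.44 in Ctr, 8.29, 8.52 and 8.21 in C2, and 8.81, 8.38 and 8.37 in C4 on its main probe set, a set with the suffix _x_at, where the conditions overlapped and nothing was called. Its other probe set was called in all 3 comparisons, at 0.15 in C4 minus Ctr (adjusted p = 0.00959), -0.17 in C2 minus Ctr (adjusted p = 0.0198) and 0.32 in C4 minus C2 (adjusted p = 0.000529), the same order of conditions as in Lig1.

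Of the 4 nucleotide supply genes, 2 rose in C4 relative to Ctr and 3 relative to C2. Among all 9347 genes clear of the floor, 10.7% and 8.13% were called higher in these comparisons. Tk1, the salvage enzyme that phosphorylates thymidine, read 7.03, 7.03 and 7.12 in Ctr, 7.11, 6.90 and 7.16 in C2, and 7.62, 7.65 and 7.39 in C4. The C4 arrays were above all others and Ctr and C2 overlapped. Tk1 was 0.49 ± 0.094 above Ctr (adjusted p = 0.0303) and 0.49 ± 0.094 above C2 (adjusted p = 0.0336), and C2 minus Ctr was 0.00 (95% interval -0.23 to 0.22). Rrm1, the large subunit of ribonucleotide reductase, read 9.79, 9.70 and 9.78 in Ctr, 9.58, 9.61 and 9.67 in C2, and 10.21, 10.09 and 9.94 in C4. Here the conditions did not overlap, and C4 was 0.32 ± 0.07 over Ctr (adjusted p = 0.0477) and 0.46 ± 0.07 over C2 (adjusted p = 0.014). A second Rrm1 probe set gave 0.32 (adjusted p = 0.0159) and 0.49 (adjusted p = 0.00363).

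Rrm2, the small subunit whose level follows S phase, read 11.08, 11.03 and 11.01 in Ctr, 10.90, 10.93 and 10.88 in C2, and 11.19, 11.13 and 11.03 in C4. All C2 arrays lay below the others, whereas Ctr and C4 overlapped. It rose by 0.21 ± 0.041 in C4 minus C2 (adjusted p = 0.0356), and differed by 0.08 in C4 minus Ctr (adjusted p = 0.502) and -0.13 in C2 minus Ctr (adjusted p = 0.254). Of its other probe sets, the brighter differed by -0.03 in C4 minus Ctr (adjusted p = 1) and the dimmer rose, by 0.20 (adjusted p = 0.0125), and both rose in C4 minus C2, by 0.25 (adjusted p = 0.0471) and 0.26 (adjusted p = 0.00538). Thymidylate synthase (Tyms) lay between 4.54 and 4.93 on all arrays, near the floor, and had no call. Of the fork chromatin genes, neither Chaf1b, a subunit of the chromatin assembly factor, nor Uhrf1, which brings the maintenance methyltransferase to newly copied DNA, had a call, and in C4 minus C2 they differed by 0.41 and 0.56 with 95% intervals of -0.03 to 0.84 and 0.16 to 0.95.

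**Figure D4:**
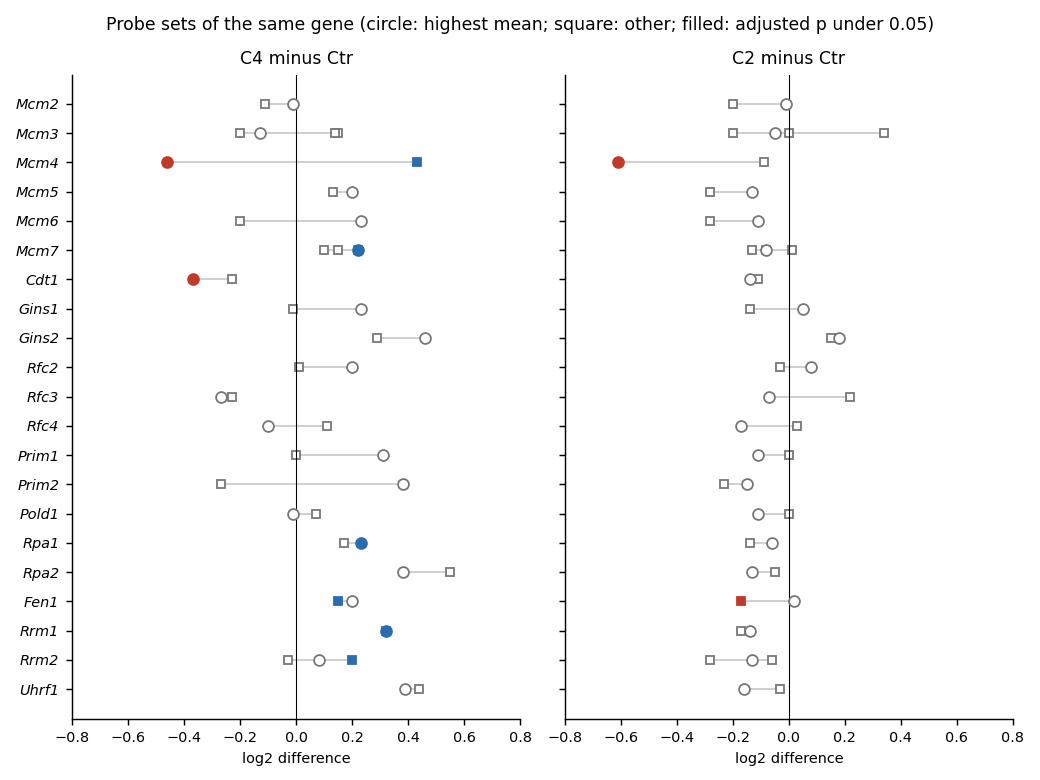
Log2 difference (x axis) of each probe set of a mean of at least 4 for the 21 replication genes with 2 or more such sets (y axis), in C4 minus Ctr and C2 minus Ctr, with circles for the probe set of highest mean, squares for others, and filled symbols for an adjusted p under 0.05. In C4 minus Ctr the symbols of Mcm4 are filled on both sides of 0, at -0.46 and 0.43, and those of Rrm1 coincide at 0.32.

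Since 21 members had more than 1 probe set clear of the floor, the other 26 probe sets gave a second reading of the same RNA, though not of other samples. In C4 minus Ctr, 16 of them lay on the same side of 0 as the main probe set of their gene and 10 on the other, 4 were called higher and 0 lower (9 and 3 at an unadjusted p under 0.05), and Mcm4 was the 1 gene with probe sets called in opposite directions. In C2 minus Ctr the numbers were 16 and 10, with 0 called higher and 1 lower, that of Fen1 (2 and 7 at an unadjusted p under 0.05). In C4 minus C2 they were 22 and 4, with 6 called higher and 1 lower, that of Rfc3. Of the main probe sets of all 9347 genes clear of the floor, 10.7% were called higher and 6.78% lower in C4 minus Ctr. The shares were 3.21% and 1.57% in C2 minus Ctr, and 8.13% and 6.67% in C4 minus C2. The increase of Mcm7 was called by its main probe set, which has the suffix _s_at for sets that match several transcripts, and 3 other Mcm7 probe sets gave 0.22 (adjusted p = 0.151), 0.15 (adjusted p = 0.573) and 0.10 (adjusted p = 0.25) in C4 minus Ctr. A second Mcm6 probe set lay below the control, at -0.20 in C4 minus Ctr (adjusted p = 0.277).

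Other genes of replication and of the cell cycle were taken from lists outside the 39 and were tested in the same fit. Their counts stand beside the 10.7% and 6.78% of the 9347 genes called higher and lower in C4 minus Ctr. In C2 minus Ctr these shares were 3.21% and 1.57%, and in C4 minus C2 they were 8.13% and 6.67%. Of 15 other origin licensing and firing genes, 1 rose in C4, the origin recognition subunit Orc3 (0.47, adjusted p = 0.000363), and 1 fell, Topbp1 (-0.43, adjusted p = 0.0161), which helps to activate the helicase. Among 24 other polymerase and fork genes 4 rose and 0 fell (10 and 2 at an unadjusted p under 0.05): the RNase H2 subunit gene Rnaseh2b (0.69, adjusted p = 0.0049), the polymerase epsilon subunit Pole3 (0.61, adjusted p = 0.0133), the PCNA-binding factor Pclaf (0.41, adjusted p = 0.0016) and the largest clamp loader subunit Rfc1 (0.37, adjusted p = 0.0315). In C2, Orc3 also rose (0.33, adjusted p = 0.00625), as did the epsilon subunit Pole4 (0.37, adjusted p = 0.0188), and Atad5, which unloads the clamp, fell (-0.31, adjusted p = 0.034). Between C4 and C2, 2 of the licensing and firing genes rose, Orc3 and the Cdt1 inhibitor Gmnn, and 6 of the polymerase and fork genes rose and 1, Pole4, fell. The medians of these lists in C4 minus Ctr were 0.016 and 0.128, beside 0.196 for the members and 0.045 for all genes clear of the floor.

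By limma 0 of 12 other nucleotide supply genes passed the test in C4 minus Ctr (1 higher and 2 lower at an unadjusted p under 0.05, median 0.019), and deoxycytidine kinase (Dck), which salvages deoxynucleosides, fell in C2, by 0.47 on the log2 scale (adjusted p = 0.0342). Of 13 other fork chromatin genes, 2 rose in C4, the histone chaperones Rbbp4 (0.50, adjusted p = 0.00169) and Nasp (0.45, adjusted p = 0.0082), and 1 fell, Rbbp7 (-0.22, adjusted p = 0.0344), with a median of 0.061. The main probe sets of Rbbp4 and Rbbp7 have the suffix _x_at and that of Nasp has _s_at, so they can also match other transcripts. Among 15 genes of the E2F factors and pocket proteins, Tfdp2, a partner subunit of E2F, rose (0.51, adjusted p = 0.0144), Lin54 of the complex that binds with pocket proteins fell (-0.41, adjusted p = 0.0475), and the median was 0.024.

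Upstream of S phase, 2 of 16 G1/S genes rose in C4 and 2 fell. Those that rose were Cdk4, the kinase partner of D cyclins (0.29, adjusted p = 0.0215), and its inhibitor Cdkn2c (0.46, adjusted p = 0.00674). Those that fell were cyclin D1, Ccnd1 (-0.48, adjusted p = 0.00759), and the kinase inhibitor p21, Cdkn1a (-0.45, adjusted p = 0.00854). Activators and inhibitors of the G1 kinases thus stood on both sides, and the median of the list was 0.021.

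Of 25 genes of G2 and mitosis, 0 passed the test by limma in C4 minus Ctr (3 higher and 1 lower at an unadjusted p under 0.05), with a median of -0.047, and 0 in C2 minus Ctr (1 higher and 2 lower), with a median of -0.024. In C4 minus C2, 12 of the 24 genes clear of the floor were above 0 and 12 below, with a median of 0.017, 1 rose, Mki67, and 1 fell, the kinetochore gene Ndc80 (-0.37, adjusted p = 0.0128). With the smallest p in C4 minus Ctr, the survivin gene Birc5 differed by 0.19 (adjusted p = 0.079), Prc1 of the mitotic spindle by -0.20 (adjusted p = 0.0856) and the kinetochore gene Cenpf by 0.24 (adjusted p = 0.225). The proliferation marker Mki67 read 10.05, 10.00 and 10.18 in Ctr, 9.79, 9.83 and 9.96 in C2, and 10.22, 10.22 and 10.47 in C4. Its 3 conditions did not overlap. Mki67 rose in C4 relative to C2 by 0.44 (adjusted p = 0.0364), and the differences from the control were 0.23 (adjusted p = 0.259) in C4 and -0.22 (adjusted p = 0.461) in C2. The difference between the replication and the mitosis lists was not tested. Of 16 genes of quiescence and cell cycle exit, 3 rose in C4 and 4 fell, with a median of -0.179. The forkhead factor Foxo3 (-0.52, adjusted p = 0.000371) and Ccng2, an unusual cyclin that slows the cycle (-0.61, adjusted p = 0.00111), were among those that fell, and the antiproliferative gene Btg2 (0.84, adjusted p = 0.00263) and Id3, which blocks differentiation factors (1.05, adjusted p = 0.000729), among those that rose.

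**Figure D5:**
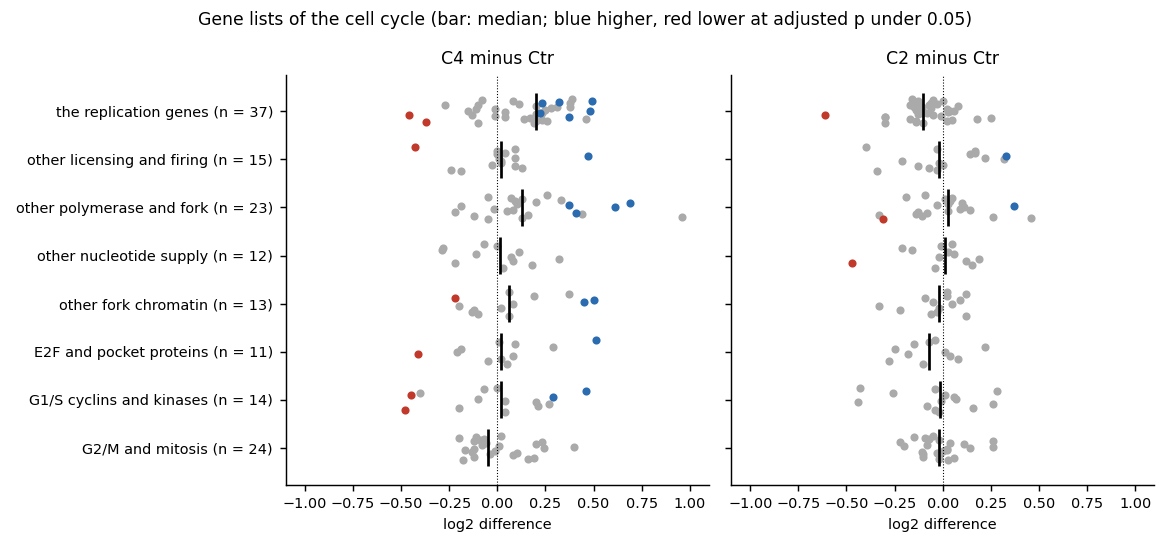
Log2 differences (x axis) of single genes with a mean of at least 4 in the replication genes and 7 further lists (y axis, with the number of genes plotted), in C4 minus Ctr and C2 minus Ctr, with blue and red points for genes called higher and lower and a black bar for the median. In C4 minus Ctr the bar of the replication genes stands at 0.196 and those of the further lists between -0.047 and 0.128.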

How the data were processed

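Total RNA of 9 samples was hybridised to 1 array each. The authors deposited log2 values (2.27 to 15.25 after removal of control probe sets), made with GCRMA (background by probe sequence, quantile normalisation, summary per probe set), version not given in the sources used here. An array gives no count depth, so the number of arrays limits the precision. Of 45101 probe sets, 64 controls were left out. Conditions were compared with limma 3.58.1 in R 4.3.3, as means over all 9 arrays with a variance prior that follows signal (residual degrees of freedom 6, prior 0.574), and adjusted by Benjamini-Hochberg over 45037 probe sets, with a call at an adjusted p under 0.05. The procedure was tested on simulated data with normal scatter, where the only recovery required was of added differences larger than those of any member. A gene is its single-symbol probe set of highest mean. The platform annotation gives 34945 probe sets 1 symbol, 932 several and 9160 none, and 34741 matched RefSeq by Entrez number.

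Members and lists were chosen with earlier results of these data known. Named were members with a call, the 4 uncalled members of highest mean, 4 that complete a complex with a called member, and up to 4 genes per list with the smallest p in C4 minus Ctr. Members named as limits of a range, as examples of a complex or as holders of a motif or of repeated values, and Pole4, Atad5, Gmnn, Ndc80, Nr2e1 and the markers under the floor, were chosen after their values were seen. No source used here ties an array to a culture or animal, so the p-values reflect the scatter among these arrays alone, which may be technical. Replicate numbers were not seen to pair the arrays: deviations of same-numbered arrays correlated at -0.04 to 0.13, and 2 of 9 correlations exceeded 0.1. Arrays of different numbers were not compared in this way, so a shared culture behind a number is not excluded.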

Additional observations from a re-analysis of the deposited data

How the results depend on the processing

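Pcna and Cdt1 kept their calls in C4 minus Ctr under each setting tried, and other calls depended on the setting. Of the members' counts in C4 minus Ctr, 6 higher and 2 lower, the increases became 12 with dim probe sets left out, 1 with the robust option (where the decreases were also 1), 3 with only the arrays compared and 3 with the replicate block. Calls over all tested probe sets moved as well, from 2833 to 4705, 1386, 1618 and 1996 under these settings in turn. In C2 minus Ctr, the 1 decrease became 3 with dim probe sets left out, 0 with the robust option and with only the arrays compared, and 2 with probe sets averaged, with median centring and with housekeeping centring. There the calls over all tested probe sets went from 767 to 1829, 45, 371, 626, 1131 and 1134 in turn. In C4 minus C2, the 10 increases became 4 with the robust option, 3 with only the arrays compared and 6 with the replicate block, and the 1 decrease became 0 with the first and second of these. With dim probe sets left out, Mcm5, Cdc6, Prim2, Rpa2 and Uhrf1 were called higher as well. Median centring added the same genes and lost Rrm2. Calls over all tested probe sets went from 2363 to 1178, 1404, 1634, 3927 and 3229 under these settings in turn. Leaving out single arrays gave 2 to 7 increases and 1 to 2 decreases in C4 minus Ctr, 0 to 0 increases and 0 to 2 decreases in C2 minus Ctr, and 4 to 9 increases and 1 to 1 decrease in C4 minus C2. Without probe sets ending in _x_at or _s_at the decreases in C4 minus Ctr became 1, and Mcm4 turned from -0.46 to 0.43, since another of its probe sets then stood for the gene. There Mcm4 was -0.09 in C2 minus Ctr (adjusted p = 0.415), and Mcm7 and Rrm1 lost their calls in C4 minus Ctr, as did Mcm7, Pola2 and Rrm2 in C4 minus C2. Calls were also gained without these sets. Fen1 was then called higher in C4 minus Ctr and lower in C2 minus Ctr, and Mcm4, Mcm5 and Fen1 were called higher in C4 minus C2. The other changes have causes that were not tested. The members' median in C4 minus Ctr was 0.144 with median centring and 0.181 with housekeeping centring, which moved all genes by 0.051 and 0.015. Since no pairing by replicate number was seen, though it is not excluded, the block is given here only. A call lost under it is not a weaker effect.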
